A study of Mus musculus with 12 samples.

Results

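OT-I cells are mouse CD8 T cells with a transgenic receptor for an ovalbumin peptide. The comparison described here set *Rroid2* knockout (KO) against *Rroid2* wild-type (WT) OT-I cells that had been sorted as memory precursor effector cells (MPEC). The cells had been transferred into mice that were infected with *Listeria monocytogenes* expressing ovalbumin, and they were sorted from spleen 14 days after the infection. The 4 MPEC libraries, 2 KO and 2 WT, were taken from a series of 12 libraries in 6 groups of 2. The other groups were KO and WT short-lived effector cells (SLEC) of day 14 and KO and WT SLEC of day 7, and all groups shared the OT-I receptor, the transfer and the infection. All 14460 genes that passed a filter on low counts were tested, out of 55421 genes in the count table. The labels do not give how the *Rroid2* KO was made, the sort gates, the age or number of the animals, or whether the libraries of a group came from separate animals, so p-values measure only the spread between these libraries, which may be technical.

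After an infection, most activated CD8 T cells die and a minority persist as memory cells. MPEC are the fraction that tends to give rise to memory: by convention they carry the interleukin-7 receptor (*Il7r*) and little KLRG1, and they depend on transcription factors such as TCF1 (*Tcf7*). SLEC have the opposite surface pattern, kill strongly and mostly disappear. The E proteins (*Tcf3*, *Tcf12*) are transcription factors that bind E-box motifs, and the Id proteins (*Id2*, *Id3*) hold them inactive; *Id2* is known for its role in effector cells and *Id3* for its role in memory precursors. The name *Rroid2* follows that of Rroid, a regulatory non-coding locus of *Id2* known from mouse innate lymphoid cells. The sources used here do not give the position of *Rroid2*, and 0 genes of the table or of the annotation carried that symbol, so loss of the targeted sequence could not be read from a count.

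The MPEC libraries had 9659158 and 10950082 counts in KO and 12665122 and 10951559 in WT. Levels are given on the counts-per-million (CPM) scale. The limit that a count of 0 allows is 3 counts, or 0.237 to 0.311 CPM in these libraries, for counting error only. Between 16531 and 18433 genes were detected, and mitochondrial ribosomal RNA took 11.0% and 13.8% of the counts in KO against 12.4% and 13.2% in WT. The label was checked on its markers, with the SLEC of day 14 beside the MPEC. *Il7r* was at 759.8 to 1037 CPM in MPEC and 25.6 to 71.7 CPM in SLEC, while *Klrg1* was at 1.33 to 3.74 CPM in MPEC and 132 to 157 CPM in SLEC. *Tcf7*, *Ccr7*, *Cd27* and *Cxcr3* were higher in every MPEC library than in every SLEC library of day 14, and *Zeb2*, *Cx3cr1*, *Gzma* and *S1pr5* were lower. *Cd8a* was at 721 to 853 CPM in MPEC, and *Cd4* had 0 counts in 3 libraries and 14 in WT replicate 1.

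WT MPEC replicate 1 stood apart from the other MPEC libraries. Its B cell markers summed to 443.7 CPM, against 128 and 142 CPM in the KO libraries and 148 CPM in WT replicate 2. On the second principal component of all 12 libraries, which held 20.5% of the variance, it lay at -8.23, while the KO MPEC libraries lay at 26.5 and 23.8 and WT MPEC replicate 2 at 20.8; the WT SLEC libraries of day 14 lay at -54.0 and -67.2. Results below that rest on it are given with values without it.

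In MPEC, KO and WT libraries differed in 2 genes of 14460 (0.0138%): cathepsin E (*Ctse*) fell and synaptojanin 2 (*Synj2*) rose in KO. Each direction had 1 called gene (0.00692%). Calls are those with a p under 0.05 after Benjamini-Hochberg adjustment in the quasi-likelihood test of edgeR, which estimated 1 spread per gene from all 12 libraries. At an unadjusted p under 0.05 there were 355 genes (2.46%), of which 145 were higher (1%) and 210 lower (1.45%) in KO, and DESeq2 called 5 genes.

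*Ctse* encodes an intracellular aspartic protease of immune and gastric cells. It is annotated as ENSMUSG00000004552.16 on the plus strand of chr1:131638306-131675505 (GRCm38). It had 18.4 and 19.5 CPM in KO MPEC, against 114 and 144 CPM in WT MPEC. The KO libraries lay close together and far below both WT libraries. Means were 18.9 ± 0.767 CPM in KO and 129 ± 21.2 CPM in WT (SD, n = 2 each), and the log2 change was -2.77 ± 0.18 (SE; 95% interval -3.15 to -2.38), with an edgeR adjusted p of 1.7e-07. Without WT replicate 1 the log2 change of *Ctse* was -2.93, with an adjusted p of 7.4e-07.

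*Synj2* encodes an inositol 5-phosphatase that removes phosphate from membrane phosphoinositides and takes part in the uncoating of endocytic vesicles. It is annotated as ENSMUSG00000023805.17 on the plus strand of chr17:5941280-6044290 (GRCm38). It had 37.6 and 30.8 CPM in KO MPEC, against 6.57 and 6.31 CPM in WT MPEC. Both KO libraries were above both WT libraries, and the WT libraries differed little from each other. Means were 34.2 ± 4.81 CPM in KO and 6.44 ± 0.183 CPM in WT (SD, n = 2 each), and the log2 change was 2.40 ± 0.28 (SE; 95% interval 1.82 to 2.98), with an edgeR adjusted p of 5.7e-04. Without WT replicate 1 the log2 change of *Synj2* was 2.43, with an adjusted p of 0.034. *Serac1* lies on the opposite strand and overlaps one end of *Synj2*. It had 5.24 and 3.36 CPM in KO and 4.15 and 5.46 CPM in WT MPEC, and the sources used here do not say whether the counts used strand.

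RefSeq's promoter table held an entry for 1 of the 2 called genes, *Synj2*, in the build GRCm38.p6. The window is shown because it holds a start site of the gene that rose in KO, and because E proteins, which Id proteins restrain, bind the E-box CANNTG. It runs from 250 bases before that start to 50 bases after it, at chr17:5975330-5975629 on the plus strand, inside the span of the gene above. The table's other window for *Synj2* starts 6 bases downstream and overlaps it; the first of the pair in the table is printed. The capital marks the first transcribed base.
*Synj2* promoter window: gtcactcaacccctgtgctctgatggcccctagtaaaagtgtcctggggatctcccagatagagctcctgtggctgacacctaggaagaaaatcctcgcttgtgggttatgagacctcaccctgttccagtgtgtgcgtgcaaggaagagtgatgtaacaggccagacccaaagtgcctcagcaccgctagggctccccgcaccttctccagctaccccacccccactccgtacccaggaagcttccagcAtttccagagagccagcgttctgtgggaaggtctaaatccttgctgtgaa
The motif CANNTG, which reads the same on both strands, occurred 0 times in this window and 0 times in the other. It occurred at least once in 72.3% of the 32851 windows of the table, with a median of 1. That describes the letters of these windows only.

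**Figure D1:**
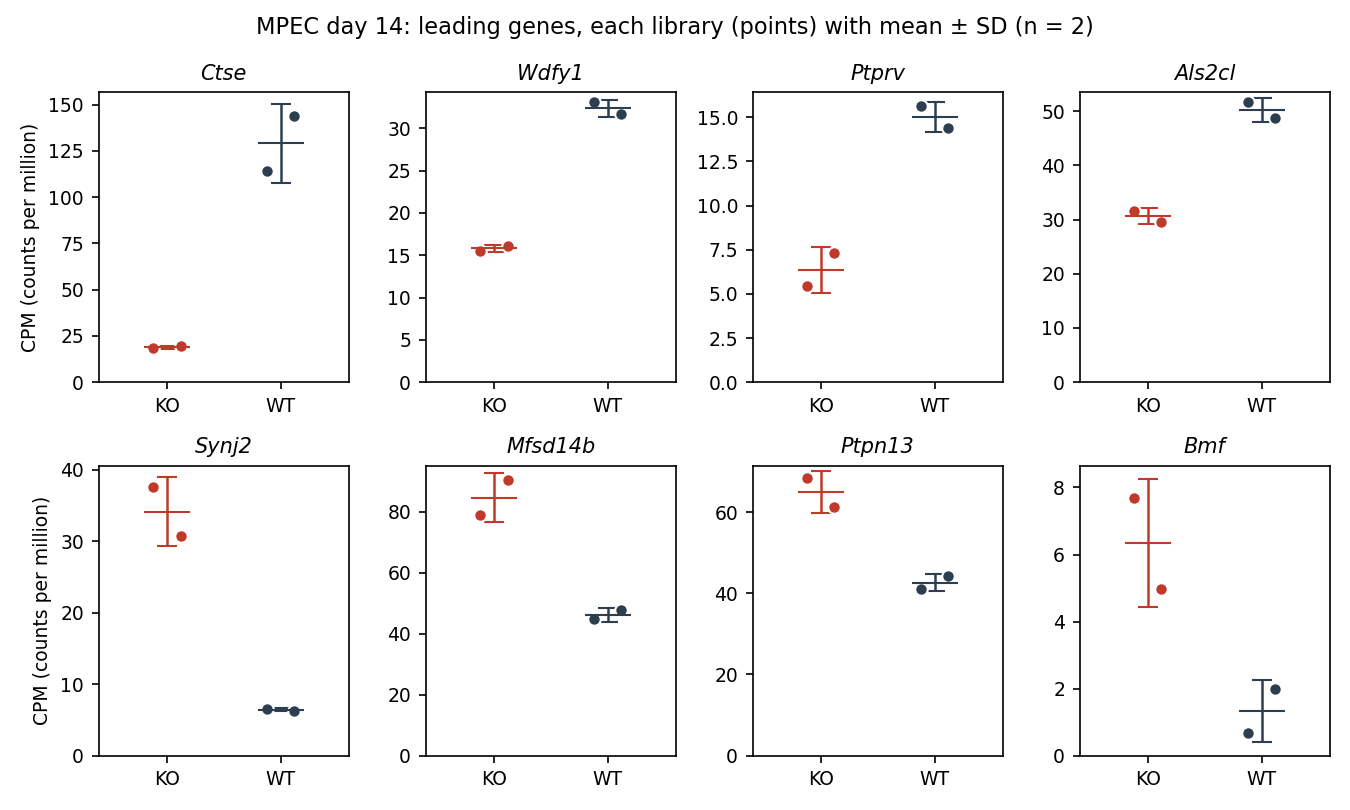
Levels in CPM (vertical axes, from 0) of 8 genes in the 2 KO and the 2 WT MPEC libraries of day 14; points are libraries, bars the mean ± SD. *Ctse* (18.4 and 19.5 CPM in KO, 114 and 144 CPM in WT) and *Synj2* (37.6 and 30.8 CPM in KO, 6.57 and 6.31 CPM in WT) were called. The other 6 genes did not pass the test. Apart from *Bmf*, the 8 genes were named on condition that their libraries did not overlap.

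The genes next in order did not pass the test. They were picked among genes whose libraries did not overlap, so that separation was a condition of naming them and is no result. It was common: both KO libraries lay above both WT libraries in 2055 genes (14.2%) and below them in 2294 genes (15.9%). *Mfsd14b*, which encodes a transporter-like protein of the major facilitator superfamily, had 78.8 and 90.3 CPM in KO against 44.6 and 47.9 CPM in WT MPEC. Both KO libraries were well above both WT libraries, with a log2 change of 0.87 ± 0.18 (SE) and an adjusted p of 0.55; DESeq2 called it at an adjusted p of 0.017. *Ptpn13*, a tyrosine phosphatase of the cytoplasm, had 68.5 and 61.2 CPM in KO against 41.1 and 44.2 CPM in WT (log2 change 0.61 ± 0.20, adjusted p = 1). *Nanos1*, an RNA-binding repressor of translation, had a log2 change of 1.48 ± 0.48 from means of 9.91 CPM in KO and 3.56 CPM in WT (adjusted p = 1). *Cop1* and *Rnf185*, which encode ubiquitin ligases, and *Hipk2*, a nuclear kinase, had log2 changes of 0.73, 0.86 and 0.65, none of which passed.

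Among the genes on the lower side, *Wdfy1*, an adaptor of endosomal Toll-like receptor signalling, had 15.5 and 16.1 CPM in KO against 33.1 and 31.7 CPM in WT MPEC. Its log2 change was -1.03 ± 0.24 (SE; adjusted p = 1), and the libraries within each group were close together. *Ptprv*, a receptor-type phosphatase gene annotated as a polymorphic pseudogene, had 5.44 and 7.29 CPM in KO against 15.6 and 14.4 CPM in WT (log2 change -1.24 ± 0.34, adjusted p = 1). *Als2cl* had 31.6 and 29.5 CPM in KO against 51.7 and 48.7 CPM in WT (log2 change -0.72 ± 0.25, adjusted p = 1). These 3 genes were also picked among genes whose libraries did not overlap, and none passed the test over all genes. *Maf*, a transcription factor of effector T cells, *Tfrc*, the transferrin receptor, and *Ndufc1*, a subunit of respiratory complex I, had log2 changes of -1.31, -0.75 and -1.27. *Gtf2h2*, a subunit of TFIIH, *Ccs*, the copper chaperone of superoxide dismutase, and *Zfp956*, a zinc finger gene, had -0.68, -0.90 and -0.94, all with an adjusted p of 1.

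Most genes of moderate or high level differed little. Over the 4777 genes with a mean of 5 or more on the log2 CPM scale, 90% of log2 changes lay between -0.22 and 0.24, and 3 genes (0.0628%) were beyond ±1: *Ctse*, *Snord17* and the ribosomal RNA gene *CT010467.1*. For these genes the median absolute difference was 0.172 between the KO libraries and 0.132 between the WT libraries. The group means differed by a median of 0.0922. Means of 2 libraries vary less than single libraries, so this value is not directly comparable with the first 2. The median half-width of a 95% interval was 0.37, so smaller differences were not detectable for a typical gene of this level even before adjustment. A call over all genes needed a larger difference than that. *Mfsd14b*, a gene of this level, was not called at a log2 change of 0.87 (edgeR adjusted p = 0.55). Over the 9611 genes with a mean of 2 or more, 42 (0.437%) were beyond ±1, 19 of them higher and 23 lower in KO.

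In several of those 42 genes 1 library stood far from the other of its group. Within the 23 lower genes, 1 WT library was more than 2 times the other in 9; within the 19 higher genes, 1 KO library was more than 2 times the other in 6. The B cell and antigen presentation gene *Cd74* had 6.47 and 4.79 CPM in KO against 89.6 and 4.99 CPM in WT MPEC, with a log2 change of -3.11 that was 0.16 without WT replicate 1. *Cdk5rap1*, which encodes a mitochondrial tRNA-modifying enzyme, had 10.1 and 11.7 CPM in KO against 43.1 and 12.2 CPM in WT, with a log2 change of -1.37 that was -0.17 without WT replicate 1. *Slc15a2*, an oligopeptide transporter, had 43.4 and 7.19 CPM in KO against 1.28 and 3.77 CPM in WT, with a log2 change of 3.37 that was 1.57 without KO replicate 1. In each of these 3 genes, chosen after their values were seen, a single library was far above the other 3, and none was called.

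**Figure D2:**
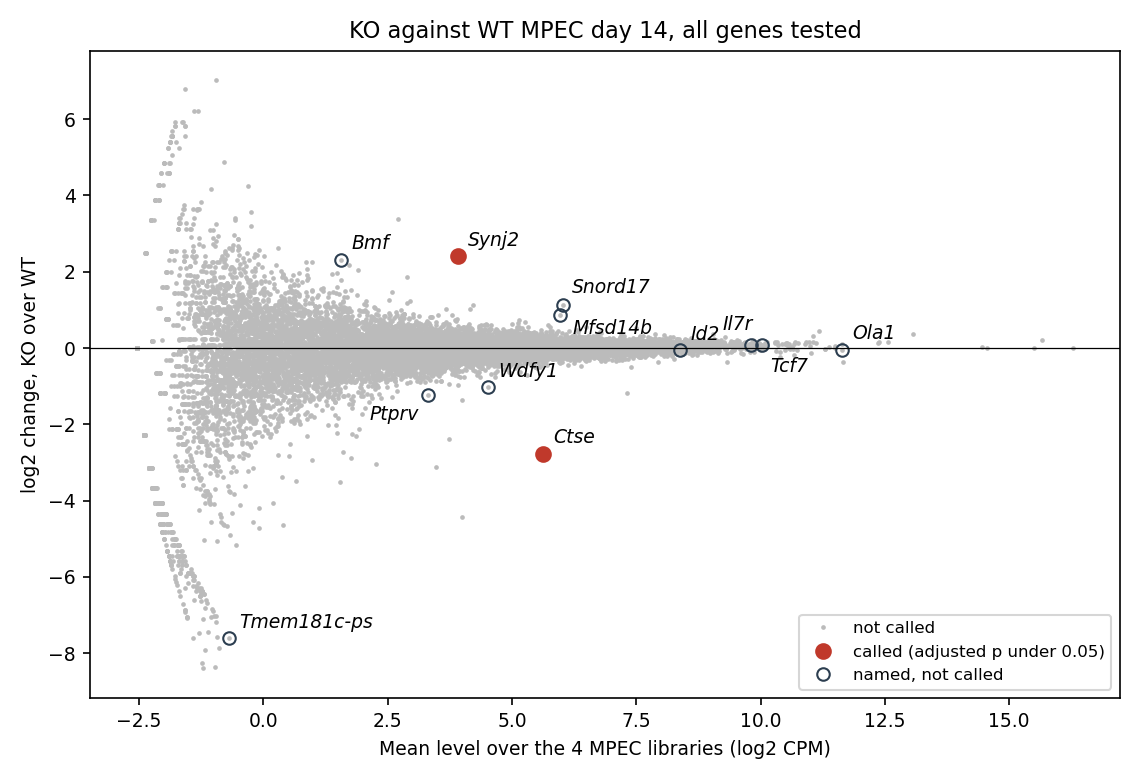
Log2 change between KO and WT MPEC of day 14 (vertical axis) against the mean level over the 4 MPEC libraries in log2 CPM (horizontal axis) for the 14460 genes tested; filled points are the 2 called genes and open circles named genes that were not called. The cloud narrows to within about ±1 at higher levels. *Ctse* and *Synj2* lie outside it, and so do some uncalled genes, such as *Gm24270* (-4.44) and *Cd74* (-3.11).

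The genes that define memory precursors and effectors gave no call. *Id2* had 320.3 and 334 CPM in KO against 357 and 325 CPM in WT MPEC. The groups overlapped, and the log2 change was -0.06 ± 0.18 (SE; 95% interval -0.44 to 0.32). *Id3* had 10.1 and 7.57 CPM in KO against 3.93 and 6.41 CPM in WT. Both KO libraries were above both WT libraries, with a log2 change of 0.79 ± 0.45 (95% interval -0.14 to 1.73, adjusted p = 1). *Il7r* had 833 and 1037 CPM in KO against 759.8 and 998 CPM in WT, with replicate differences larger than that between the groups. Its log2 change was 0.09 (95% interval -0.33 to 0.51).

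The intervals of the other genes that were followed all held 0, and they differ in how much they leave room for. For *Tbx21*, the T-bet gene of effector cells, the log2 change was 0.10 (-0.28 to 0.48), and for *Bcl2*, a survival factor of memory cells, 0.11 (-0.40 to 0.62). For *Zeb2*, a repressor that favours SLEC, it was -0.19 (-0.70 to 0.31), and both KO libraries (114 and 97.8 CPM) were below both WT libraries (126 and 116 CPM). For *Cxcr3*, a homing receptor for inflamed tissue, it was 0.22 (-0.45 to 0.89). For the granzyme gene *Gzmb* it was 0.03 (-0.71 to 0.77), for *Klrg1* 0.26 (-0.85 to 1.38) and for *Eomes*, a T-box factor of memory cells, -0.16 (-1.39 to 1.07). *Tcf7* had 1015 and 1142 CPM in KO and 911 and 1143 CPM in WT MPEC, and yet its interval was wide, at -1.43 to 1.57 around 0.07. The spread per gene is shared by all groups, and *Tcf7* varied between the KO SLEC libraries of day 14 (446 and 183 CPM). It also varied between the SLEC libraries of day 7 (36.5 and 115 CPM in KO, 81.1 and 33.4 CPM in WT).

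**Figure D3:**
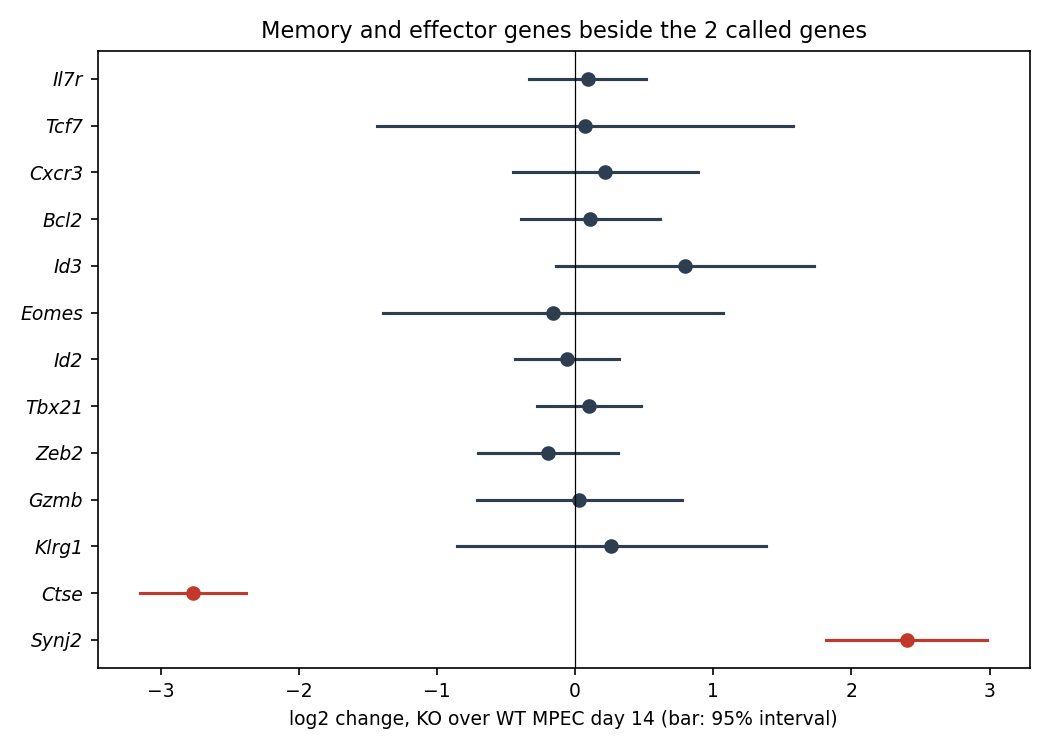
Log2 change between KO and WT MPEC of day 14 (horizontal axis) of 11 memory and effector genes beside *Ctse* and *Synj2*; points are estimates and bars 95% intervals. All 11 intervals hold 0, and the intervals of *Ctse* (-3.15 to -2.38) and *Synj2* (1.82 to 2.98) do not.

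The gene lists were read as counts, with the median log2 change of all genes tested, -0.01, beside them. Of the 18 memory transcription factors 0 were called and 0 reached an unadjusted p under 0.05. In 15 the log2 change was above 0, where 49% of all genes did, and the median was 0.07. Most of these factors are abundant. Of all genes with a mean of 5 or more on the log2 CPM scale, 57.6% were above 0, with a median of 0.03. In 6 of the 18 both KO libraries were above both WT libraries, against a share of 14.2% over all genes: *Lef1*, *Id3*, *Bcl6*, *Klf3*, *Zeb1* and *Zfp36l2*. *Lef1*, the partner of TCF1, had 301 and 320 CPM in KO against 240 and 291 CPM in WT MPEC, and *Zeb1*, a repressor linked to memory, had 117 and 115 CPM against 96.1 and 102 CPM. These differences were small: without WT replicate 1 the list's median was -0.01, and without WT replicate 2 it was 0.16.

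Of the 19 effector transcription factors 0 were called and 1, *Maf*, reached an unadjusted p under 0.05; 10 were above 0 and the median was 0.01. *Runx3*, which sets the cytotoxic programme, had 371 and 349 CPM in KO against 311 and 333 CPM in WT MPEC, while *Rora* had 103 and 117 CPM against 121 and 151 CPM. Of the 5 E and Id protein genes tested, 0 were called and *Id3* alone was above 0. The lowest log2 change among them was -0.53. *Tcf3* and *Tcf12* had log2 changes of -0.14 ± 0.15 and -0.07 ± 0.14 (SE), so neither of these E protein genes differed beyond its error. Of the 17 genes of granzymes, perforin and killing 0 were called, with 11 above 0 and a median of 0.05. *Prf1*, perforin, had 154 and 243 CPM in KO against 179.5 and 185 CPM in WT, so the KO libraries lay on either side of WT. *Gzma* was low in MPEC, at 4.52 and 8.72 CPM in KO and 12.6 and 9.61 CPM in WT (log2 change -0.75 ± 0.44, adjusted p = 1).

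Secreted cytokines and chemokines had 0 called of 13 and a median of -0.02; their most abundant member, the chemokine *Ccl5*, had 2358 and 2626 CPM in KO against 2378 and 2684 CPM in WT MPEC. Homing receptors and integrins had 0 called of 23, with 15 above 0 and a median of 0.04. Their one member with an unadjusted p under 0.05 was *Itgae*, the CD103 integrin of tissue-resident cells, at 0.616 and 5.27 CPM in KO and 5.36 and 9.33 CPM in WT (log2 change -1.25 ± 0.57, adjusted p = 1). *Ccr2*, a receptor for inflammatory chemokines, and *Cxcr4*, which guides cells to bone marrow, were above WT in both KO libraries, with log2 changes of 0.25 ± 0.16 and 0.40 ± 0.29. Cytokine receptors and their feedback genes had 0 called of 23, with 17 above 0 and a median of 0.06. *Ifngr1*, a chain of the interferon gamma receptor, had 317 and 378 CPM in KO against 303 and 286 CPM in WT, and *Il6st*, the shared chain of IL-6 family receptors, 95.4 and 91.6 CPM against 74.6 and 83.9 CPM; neither passed.

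Of the 18 survival and death genes of the BCL2 family and its partners 0 were called and 2 reached an unadjusted p under 0.05, *Bmf* and *Bax*, which both encode promoters of cell death and which went opposite ways. *Bmf* had 7.70 and 4.99 CPM in KO against 0.680 and 1.98 CPM in WT MPEC (log2 change 2.31 ± 0.71, adjusted p = 1). *Bax* had 8.62 and 7.29 CPM in KO against 12.2 and 13.7 CPM in WT (log2 change -0.70 ± 0.30, adjusted p = 1). Costimulatory and inhibitory receptors had 0 called of 25, with 19 above 0 and a median of 0.08; *Lag3*, an inhibitory receptor, had 11.5 and 11.9 CPM in KO against 7.86 and 5.09 CPM in WT (log2 change 0.83, adjusted p = 1), while *Pdcd1*, which encodes PD-1, overlapped between the groups. T cell receptor signalling had 0 called of 25 and a median of 0.03, with *Nfatc1* at 413 and 438 CPM in KO and 346 and 359 CPM in WT. Killer lectin-like receptors had 0 called of 15 and a median of -0.12, although near-identical copies in this family can share reads.

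Immediate early genes, which mark recent activation and handling of cells, had 0 called of 28 and a median of 0.02, but they varied between replicates: *Fos* had 9.45 and 45.7 CPM in KO and 10.3 and 39.2 CPM in WT MPEC. Replicate 2 was the higher library in both genotypes. Type I interferon response genes had 0 called of 29, with 11 above 0, a median of -0.03 and 1 unadjusted p under 0.05 (*Oas2*, log2 change -1.79 ± 0.66 at 0.616 and 1.25 CPM in KO and 2.79 and 3.86 CPM in WT).

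Genes of G2 and M phase had the list median farthest from 0 among the lists of T cell biology, -0.35, with 0 called. Of its 30 members 5 were above 0, where 49% of all genes were, and 8 were lower in both KO libraries, against a share of 15.9% over all genes. *Cenpf*, a kinetochore protein, had 2.05 and 2.01 CPM in KO against 6.50 and 7.16 CPM in WT MPEC (log2 change -1.74 ± 0.75, adjusted p = 1) and was the one member with an unadjusted p under 0.05. Abundant members differed less: *Smc4* had 213 and 203 CPM in KO and 210.0 and 216 CPM in WT, *Top2a* 43.7 and 40.5 CPM against 47.6 and 47.4 CPM, and *Mki67* 29.0 and 34.3 CPM against 44.1 and 27.9 CPM. Without WT replicate 1 the median was 0.0081, and without KO replicate 1 it was -0.96. Genes of S phase had 0 called of 30, 12 above 0 and a median of -0.04.

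Of the 13 protein-coding genes of the mitochondrial genome, 7 passed the filter and 5 had 0 counts in all MPEC libraries. All 7 were above 0, with a median of 0.14 and 0 called; the median was -0.18 without KO replicate 2. *mt-Nd6* had 172 and 162 CPM in KO against 119 and 140.2 CPM in WT MPEC (log2 change 0.37 ± 0.16, adjusted p = 1). It lies on the opposite strand from *mt-Nd5* and overlaps it. Replicates differed more than the groups in *mt-Co1*, at 2176 and 3295 CPM in KO and 2322 and 3076 CPM in WT. Glycolysis (23 genes), fatty acid oxidation (16) and cholesterol and fatty acid synthesis (26) each had 0 called and 0 with an unadjusted p under 0.05, with medians of 0.03, 0.01 and 0.03.

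The 2 called genes each belong to a list whose other members gave no call. Among the 21 cathepsins and lysosomal proteins, 10 were below 0 and the median was 0.01. Other proteases of the list overlapped between the groups: *Ctsd*, the other main aspartic protease of lysosomes, had 223 and 303 CPM in KO and 240.3 and 267 CPM in WT MPEC, and *Ctss*, a cysteine protease, 85.3 and 111 CPM against 103 and 108 CPM. Among the 22 inositol phosphatases and phosphoinositide kinases, 16 were above 0 and the median was 0.09. In 10 of the 22 both KO libraries were above both WT libraries, against a share of 14.2% over all genes. *Synj2* itself is among these 10, and the list was written with earlier results of these data known. *Synj1*, the closest relative of *Synj2*, had 98.4 and 105 CPM in KO and 98.0 and 94.6 CPM in WT (log2 change 0.08), and *Inpp5d*, which encodes SHIP-1, a brake on signalling in blood cells, 275 and 319 CPM against 271 and 270.4 CPM. The 3 genes that DESeq2 called beyond these 2 were *Mfsd14b*, *Gm25911* and *Gm43305*, and none of them is in a list. Leaving out KO replicate 2 turned the medians of several lists below 0, among them homing receptors (-0.11) and costimulatory and inhibitory receptors (-0.0094).

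**Figure D4:**
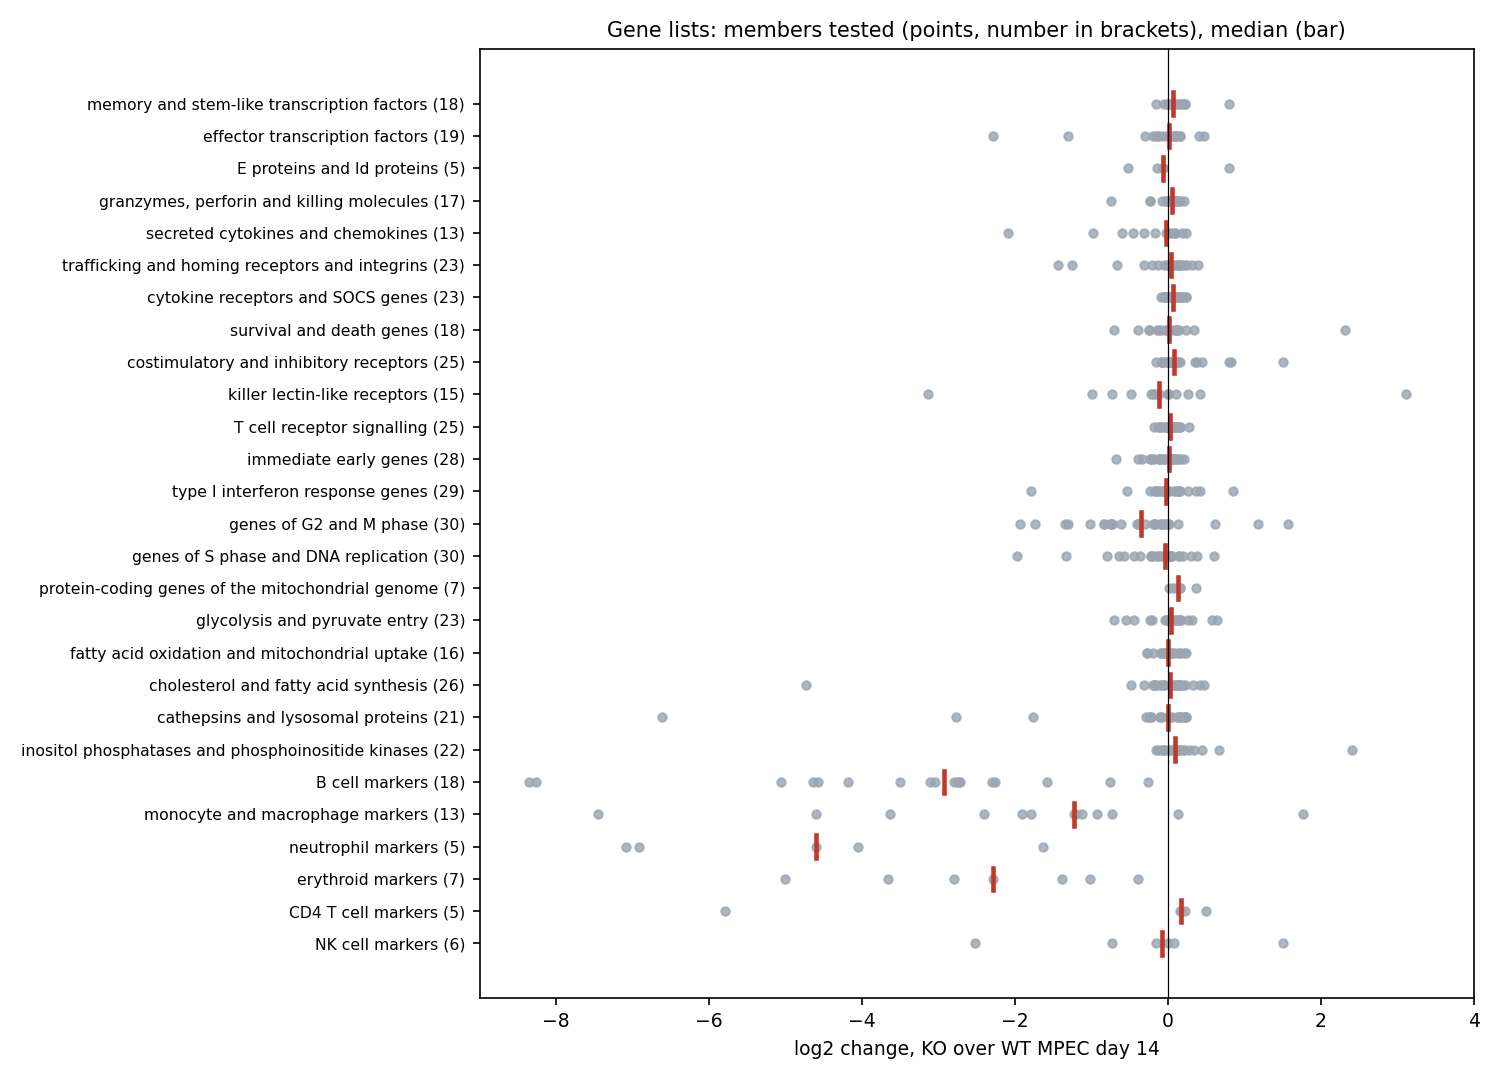
Log2 change between KO and WT MPEC of day 14 (horizontal axis) for the members of 21 T cell gene lists and 6 marker lists for other cells; points are genes tested, bars list medians, and the number tested stands in brackets. Medians of the T cell lists lie between -0.35 and 0.14, while B cell, monocyte and macrophage, neutrophil and erythroid markers have medians from -4.61 to -1.23; without WT replicate 1 those of B cells (0.07), neutrophils (0) and erythroid cells (-0.43) were nearer to 0.

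Markers of other cells were higher in WT for several cell types, most of all in WT replicate 1. In bulk samples, fewer cells of a type and less RNA per cell cannot be told apart. The 18 B cell markers all had a log2 change below 0, with a median of -2.92, 0 called and 0 with an unadjusted p under 0.05. *Ms4a1*, which encodes CD20, had 0.411 and 0.383 CPM in KO against 13.7 and 0 CPM in WT MPEC. The signal thus stood in WT replicate 1: without that library the median of the B cell list was 0.07. The 13 monocyte and macrophage markers tested summed to 13.3 and 14.6 CPM in KO and 28.6 and 19.9 CPM in WT; 11 were below 0 with a median of -1.23, which was -1.39 without WT replicate 1 and -2.69 without KO replicate 2. *Cd14* and *Fcgr1* were at 0 in all 4 libraries. Neutrophil markers summed to 0 and 0.479 CPM in KO and 7.93 and 0 CPM in WT, and erythroid markers to 2.98 and 0.192 CPM in KO and 5.66 and 1.51 CPM in WT. Without WT replicate 1 the neutrophil median was 0 instead of -4.61, and the erythroid median -0.43 instead of -2.29. Platelet markers went the other way, at 4.41 and 8.15 CPM in KO and 3.78 and 2.36 CPM in WT. The NK cell marker *Ncr1* was at 0 in all 4 libraries. Whether RNA of other cells had a part in any difference of the T cell lists was not tested.

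Genes near *Ctse*, *Synj2*, *Id2* and *Ptprc* were counted for further differences. *Ptprc* lies on chromosome 1, as *Ctse* and *Ptprv* do. Within 10 Mb of *Ptprc*, 118 genes were tested, 5 had an unadjusted p under 0.05 (4.24%) and 1 was called, *Ctse*. *Ptprv* lies within this distance too. Whether position had a part in the change of either gene was not tested. The same share was 3.42% within 10 Mb of *Ctse*, 6.25% within 10 Mb of *Synj2* and 4.41% within 10 Mb of *Id2*. Over all genes it was 2.46%. Within 1 Mb of *Ptprc*, 1 of 18 genes (5.56%) had an unadjusted p under 0.05. Within 1 Mb of *Ctse*, 27 other genes were tested and 0 had an unadjusted p under 0.05, with a median log2 change of -0.02. Within 1 Mb of *Id2*, 7 were tested and 0 had one; *Kidins220*, a membrane scaffold beside *Id2*, had 223 and 186 CPM in KO and 206 and 195 CPM in WT MPEC. Within 1 Mb of *Synj2*, 3 of 22 (13.6%) had an unadjusted p under 0.05, all lower in KO, where 2.46% of all genes did. They were *Ldhal6b*, a lactate dehydrogenase-like gene, and the pseudogenes *Tmem181b-ps* and *Tmem181c-ps*, which were singled out after their values were seen.

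*Tmem181c-ps* had 0 counts in both KO MPEC libraries against 32 and 18 counts in WT MPEC, at least 14.1-fold lower when 3 counts over the KO group are taken as the floor. It had 2 counts over the KO SLEC libraries and 167 over the WT SLEC libraries. *Ldhal6b* had 0 counts in KO MPEC against 16 and 17 in WT MPEC, at least 9.30-fold lower against the same floor, but 51 counts in KO and 36 in WT SLEC. The *Tmem181* genes are close copies of each other that can share reads, so the values of single copies are uncertain. None of the 3 passed the test over all genes (adjusted p = 1).

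The KO effect in MPEC was compared with that in the SLEC groups by testing the difference of the effects. Between MPEC and SLEC of day 14, 0 of 14460 genes were called (0%), with 612 at an unadjusted p under 0.05 (4.23%) and 0 called by DESeq2. *Ctse* had log2 changes of -2.77 in MPEC, -2.61 in SLEC of day 14 and -2.57 in SLEC of day 7. The differences were -0.16 ± 0.27 (SE; 95% interval -0.72 to 0.41) and -0.20 ± 0.26 (-0.74 to 0.34), so the intervals of *Ctse* leave room for less than 1 log2 unit in either direction. *Synj2* had 2.40 in MPEC, 1.27 in SLEC of day 14 and 1.03 in SLEC of day 7. Its differences were 1.13 ± 0.41 (95% interval 0.27 to 1.99) and 1.37 ± 0.41 (0.51 to 2.23), and neither passed after adjustment over all genes (adjusted p = 1 for both). The WT level of *Synj2* was alike in the 3 populations, at 6.31 to 8.75 CPM over the WT libraries, and the KO level was 30.8 to 37.6 CPM in MPEC and 13.8 to 20.1 CPM in SLEC.

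For other genes named above, the log2 changes are given side by side; none of these differences between MPEC and SLEC of day 14 was called. *Mfsd14b* had 0.87 in MPEC, 1.36 in SLEC of day 14 and 1.02 in SLEC of day 7, and it was called in both SLEC comparisons (adjusted p 0.0011 and 0.037). *Ptprv* had -1.24 in MPEC, -3.37 in SLEC of day 14 and -2.29 in SLEC of day 7. It was called in both SLEC comparisons (edgeR adjusted p 1.3e-04 and 0.0025). Its difference from SLEC of day 14 was 2.14 ± 0.53 (adjusted p = 1). *Il7r* had 0.09 in MPEC and 1.10 in SLEC of day 14, where it was called (edgeR adjusted p 0.0496). Its difference was -1.01 ± 0.31 (95% interval -1.66 to -0.35, adjusted p = 1). *Maf* had -1.31 in MPEC and 1.16 in SLEC of day 7, a difference of -2.47 ± 0.55 (adjusted p = 1). Between MPEC and SLEC of day 7, 1 gene was called (0.00692%), with 375 at an unadjusted p under 0.05 (2.59%). It was *Ola1*, an ATPase of the OBG family, with log2 changes of -0.05 in MPEC and 4.83 in SLEC of day 7.

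In SLEC of day 7, 4 genes (0.0277%) were called between KO and WT: *Ctse* and *Ptprv* fell, and *Mfsd14b* and *Ola1* rose. In SLEC of day 14, 78 genes (0.539%) were called. Of these 78, 1 was called in MPEC, *Ctse*. The 10 that were higher in KO SLEC had a median log2 change of 0.16 in MPEC, with 9 above 0. The 68 that were lower had a median of -1.88, with 66 below 0 and 7 at an unadjusted p under 0.05. Over all genes, 1.45% were lower in KO MPEC at that p. The median of the 68 was 0 without WT MPEC replicate 1, with 29 above and 33 below 0. The B cell markers summed to 444 CPM in that library and to as much as 3233 CPM in a SLEC library, and their part in these values was not tested.

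**Figure D5:**
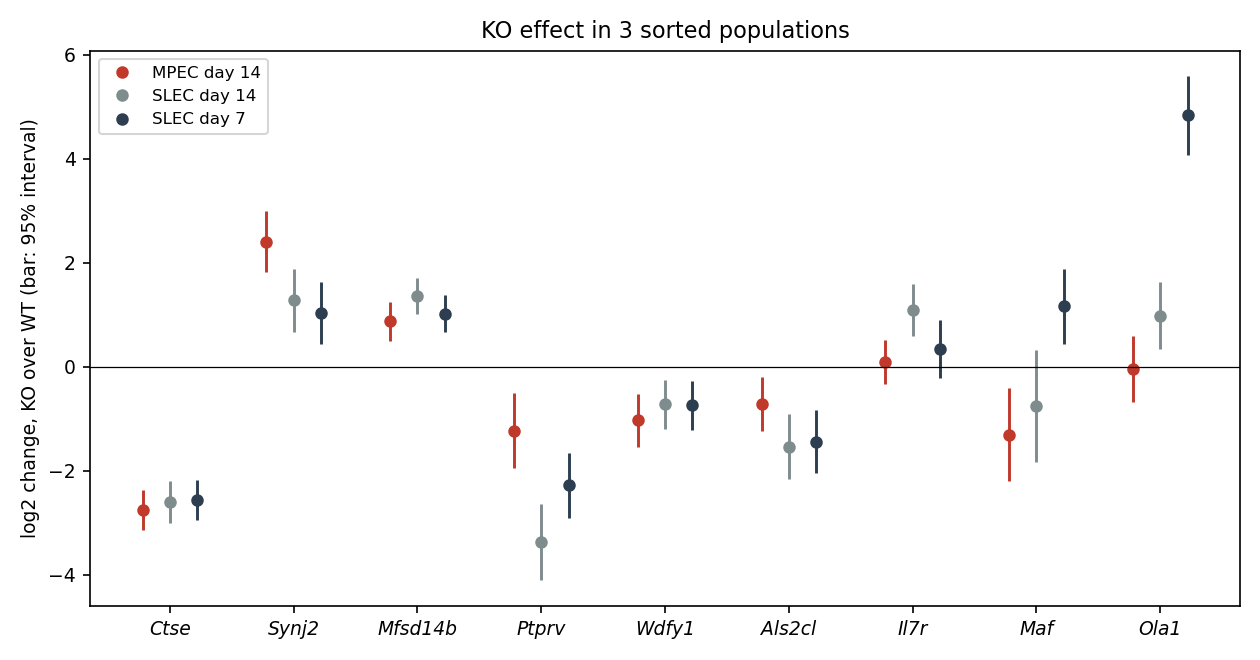
Log2 change between KO and WT (vertical axis) of 9 genes in MPEC of day 14, SLEC of day 14 and SLEC of day 7; points are estimates and bars 95% intervals, each from 2 KO and 2 WT libraries. *Ctse* lies at -2.77, -2.61 and -2.57 in the 3 populations, *Synj2* at 2.40, 1.27 and 1.03, and *Ola1* at -0.05, 0.98 and 4.83.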

How the data were processed

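The deposited values are unnormalized counts of reads per gene, as whole numbers. The submitters' processing notes name bcl2fastq, STAR 2.6.1a and the build GRCm38, with no roles; libraries were made with a stranded SMART-Seq kit, per the labels' protocols. The sources used here do not give the counting program, its annotation or its strand setting. Identifiers were matched to GENCODE M21 (99.7% of 55421), and 27 symbols that had turned into dates were restored.

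Genes were filtered with filterByExpr over the 6 groups (14460 kept, at least 99.7% of each library's counts) and scaled by TMM. edgeR 4.0.16 in R 4.3.3 was fitted to all 12 libraries by quasi-likelihood, each group having 1 coefficient (6 residual degrees of freedom), and p-values are two-sided and Benjamini-Hochberg adjusted over all genes tested. There were 3 comparisons: KO against WT in MPEC, and its difference from each SLEC effect. CPM use TMM-scaled library sizes. Principal components came from the 2000 genes of highest variance in log2 CPM (prior count 2). The procedure was run on simulated counts, with an outcome that is not given here. Apart from changes set in KO MPEC, each simulated gene had the same expected share in every library. The simulation thus held no differences between MPEC and SLEC and no library with transcripts of other cells. DESeq2 1.42.0 was one of 19 alternatives. As a check for one library present under 2 names, the counts of replicates were compared: chi-square per degree of freedom was 24.5 in KO and 12.8 in WT MPEC. This shows only that their counts are not identical within sampling noise, not that the libraries are independent.

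Named genes were the called genes, then those with the smallest p up to 10 per direction (mean log2 CPM of 2 or more, no overlap of libraries), 2 or 3 members of each list, 12 followed genes and genes called in a difference; predicted genes were not named by the rule, and further list members are named with their values known. The comparison, lists and rule were chosen with earlier results of these data known. List counts carry no test. Some genes chosen by this rule are not reported here.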

Additional observations from a re-analysis of the deposited data

Results flagged for a closer look

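*Ola1* was the one gene whose KO effect differed between MPEC of day 14 and SLEC of day 7 by the test of the difference itself. It had 2461 and 3994 CPM in KO MPEC, against 2472 and 4192 CPM in WT MPEC. It had 2285 and 2764 CPM in KO SLEC of day 7, against 81.6 and 95.5 CPM in WT SLEC of day 7. The low values thus stood in the WT SLEC libraries of day 7, and the MPEC groups overlapped. The difference, MPEC minus SLEC of day 7, was -4.88 ± 0.43 on the log2 scale (SE; 95% interval -5.84 to -3.92, edgeR adjusted p = 0.0036). In SLEC of day 14 it had 2488 and 3813 CPM in KO, against 1639 and 1560.2 CPM in WT. *Ola1* kept this sign in all 18 alternatives, at -5.28 to -4.46 with 1 library left out, but it did not pass with no filter on low counts (adjusted p = 0.16) or without either KO or either WT SLEC library of day 7 (adjusted p up to 1).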

How the results depend on the processing

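*Ctse* and *Synj2* kept their direction and their call in all 19 alternatives, with log2 changes of -2.93 to -2.60 and 2.25 to 2.53 when 1 library was left out. The count of called genes in MPEC was 2; it was 5 with DESeq2, 7 with no filter on low counts (adding *Snord17*, *Cdk5rap1*, *Mfsd14b*, *Gm43305* and *Gm25911*) and 2 to 4 with 1 library left out (4 without WT MPEC replicate 2, adding *Gm24270* and *Cdk5rap1*). Genes whose effect differed between MPEC and SLEC of day 14 numbered 0, but 23 with no filter (*Il7r* and *Ptprv* among them) and 0 to 4 with 1 library left out (4 without WT SLEC day 14 replicate 1). Against SLEC of day 7 the count was 1 (*Ola1*, or *Lars2* with no filter), and 0 to 19 with 1 library left out (19 without WT SLEC day 7 replicate 2, and 0 without WT SLEC day 7 replicate 1 or either KO SLEC library of day 7). The cause was not tested.

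Deviations of same-numbered KO and WT MPEC libraries correlated at 0.0446 over all genes tested. Every gene had equal weight in this value, so it cannot settle whether replicate numbers pair the samples. Single genes, *Fos* among them, had the same replicate higher in both genotypes. With the replicate number as a block the 3 counts stayed 2, 0 and 1, and *Gzmb* turned to -0.017. Leaving out 1 library turned the sign of 14 uncalled genes, with these ranges of log2 change: *Gzmb* -0.59 to 0.45, *Klrg1* -0.69 to 0.79, *Il7r* -0.10 to 0.29, *Tcf7* -0.085 to 0.23, *Tbx21* -0.16 to 0.30, *Eomes* -0.45 to 0.075 and *Id2* -0.14 to 0.0081. For *Tcf3* the range was -0.37 to 0.041, for *Lamp1* -0.088 to 0.44, for *Btg2* -0.063 to 0.37, for *mt-Nd5* -0.10 to 0.37, for *Acads* -0.85 to 0.11, for *Lipa* -0.39 to 0.013 and for *Ola1* -0.45 to 0.37. Other scaling moved the median of all genes by less than 0.1.

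With 2 libraries a group, the median 95% interval reached 0.37 log2 units to either side for genes at 5 or more on the log2 CPM scale and 0.69 over all genes, so small differences were out of reach. These intervals are not adjusted over all genes, and a call needed a larger difference. Whether libraries of a group are separate animals is not given. WT MPEC replicate 1 carried B cell transcripts, and list medians of low genes moved without it. As alternatives chosen after seeing the data, the median of the genes lower in KO SLEC of day 14 was 0 without that library, and that of the genes higher there was 0.30 without KO MPEC replicate 2; the small nucleolar RNA genes gave -0.18 without KO MPEC replicate 1. *Cd74*, also added, ranged from -4.01 to 0.16 with 1 MPEC library left out, and *Cdk5rap1* from -1.99 to -0.17.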

Other observations

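Small nucleolar RNA genes, which guide the chemical modification of ribosomal RNA, were looked at after their values were seen, and their set was given no test. Of 81 tested, 0 were called by edgeR, and 11 had an unadjusted p under 0.05 (13.6%), all higher in KO, where 2.46% of all genes did. Their CPM summed to 623 and 357 in KO MPEC, against 299.7 and 345 in WT MPEC, so KO replicate 1 stood above the other 3 libraries. *Snord17* had 120.2 and 77.3 CPM in KO, against 33.2 and 58.3 CPM in WT (log2 change 1.12 ± 0.32), and *Snora23* had means of 25.5 CPM in KO and 12.6 CPM in WT (log2 change 1.03 ± 0.29). The median log2 change of the 81 genes was 0.49. It was -0.18 without KO replicate 1, as an alternative added after seeing the data, with 37 above and 43 below 0, and 0.46 to 0.75 without another MPEC library. Short RNAs depend on the recovery of small fragments in a library, which was not measured.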
